A study of Mus musculus with 2 samples.

Results

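The proximal miRNAs of the imprinted Dlk1-Dio3 domain on mouse chromosome 12 are the 10 genes Mir337, Mir540, Mir665, Mir431, Mir433, Mir127, Mir434, Mir136, Mir341 and Mir370. They were chosen by name, and 9 of the 10 have a row in the count tables, out of 1973 miRNA genes measured. No row carries the identifier that the annotation GENCODE M21 gives to Mir136, and a row at the same place is described apart. Small RNA was sequenced from embryonic hearts of B6NCrl mice, an inbred strain, at day 14.5 of gestation. The only group has 2 libraries, replicate 1 from tissue taken on 15 July and replicate 2 from tissue taken on 17 July 2014, with no treatment and no control group. The labels call each library a single heart but give its sex as males and females pooled, and do not settle which holds.

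In the Dlk1-Dio3 domain the maternal chromosome makes long noncoding RNAs (Meg3, the transcript opposite Rtl1, Rian and Mirg), from which the miRNAs and small nucleolar RNAs of the domain are cut. The paternal chromosome makes the protein-coding genes, among them Dlk1 and Rtl1, a gene derived from a retrotransposon that the placenta and fetal muscle need. Because Rtl1 and the miRNAs opposite it are read from the same DNA on opposite strands, these miRNAs pair with Rtl1 mRNA along their whole length and can direct its cleavage, as was shown in mouse embryos.

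The genes fall into 3 places. Mir337, Mir540 and Mir665 lie within 0.525 kb of each other (starts at 109585789, 109586080 and 109586314, plus strand, build mm10) between Meg3 and Rtl1, outside any other annotated gene except that Mir3544 lies opposite Mir337. Mir431 (109590447 to 109590537), Mir433 (109591715 to 109591838), Mir127 (109592846 to 109592915), Mir434 (109594506 to 109594599) and Mir136 (109595327 to 109595388) lie on the plus strand opposite the coding sequence of Rtl1, which is on the minus strand. Mir341 (109611500 to 109611595) and Mir370 (109618258 to 109618336) lie in introns of Rian, on its strand. The widest space between neighbours is the 16.1 kb from Mir136 to Mir341.

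The mature sequences below are those of the miRNAs opposite Rtl1, shown because their pairing with Rtl1 follows from their place, and of Mir341, shown for its repeat. They are from RefSeq (build GRCm38.p6), both arms of each hairpin, with the seed (bases 2 to 8) in capitals. The tables count reads per gene, so the arms cannot be told apart in the values that follow.
miR-127-5p: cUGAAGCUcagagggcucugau
miR-127-3p: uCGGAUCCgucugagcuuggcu
miR-431-5p: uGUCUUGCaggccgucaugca
miR-431-3p: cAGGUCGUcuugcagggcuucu
miR-433-5p: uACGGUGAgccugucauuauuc
miR-433-3p: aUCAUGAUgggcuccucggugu
miR-434-5p: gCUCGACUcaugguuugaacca
miR-434-3p: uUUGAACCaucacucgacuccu
miR-136-5p: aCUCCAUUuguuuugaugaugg
miR-136-3p: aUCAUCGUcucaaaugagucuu
miR-341-5p: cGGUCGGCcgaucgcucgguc
miR-341-3p: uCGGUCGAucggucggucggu

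All 20 mature sequences of the 10 genes have different seeds, so no pair of them belongs to 1 seed family. Outside the 10 genes, 2 of these seeds recur among RefSeq mouse miRNAs: that of miR-540-3p in miR-6915-5p, and that of miR-370-5p in miR-1193-3p, whose gene lies in the distal part of the same domain. None of the 10 hairpins shares a stretch of 20 bases with a hairpin at another locus, on either strand, against 12.7% of 1005 RefSeq mouse hairpins. That bears on the counts, since reads mapping to several places are kept out of them, although only hairpins were searched in that way and not the genome. The hairpin of Mir341 holds the letters CGGU at 7 positions, searched on the strand of the hairpin alone, and it is the 1 hairpin of 1005 with 5 or more. These letters were picked from the repeat of Mir341 itself, so the comparison describes that hairpin and is no test. Hairpin GC content ran between 40.3% (Mir136) and 61.2% (Mir540), with a median of 56.1%, beside 51.7% over all hairpins.

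For the 5 genes opposite Rtl1, each of the 10 mature sequences had exactly 1 fully complementary site in the annotated Rtl1 transcript, and all 10 sites lay in its coding sequence of 5235 bases. The other 10 mature sequences had none. The sites for the most abundant pair of genes are given below as Rtl1 mRNA, 5′ to 3′, with the bases that pair with the seed in capitals.
Rtl1 site of miR-127-5p: aucagagcccucugAGCUUCAg
Rtl1 site of miR-127-3p: agccaagcucagacGGAUCCGa
Rtl1 site of miR-431-5p: ugcaugacggccuGCAAGACa
Rtl1 site of miR-431-3p: agaagcccugcaagACGACCUg

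Counted from the first base of the start codon, the sites of miR-127-3p and miR-127-5p span bases 2495 to 2516 and 2529 to 2550. Those of miR-431-3p and miR-431-5p span bases 4881 to 4902 and 4925 to 4945. The site of miR-136-3p lies nearest the start, at bases 17 to 38. Among all annotated transcripts of GENCODE M21, full matches to the mature sequences on either strand outside their own gene were found in Rtl1 and in the 2 miRNA genes opposite Mir337 and Mir136, and in no other gene. These are matches of letters, and Rtl1 itself was not measured here.

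Gene reads on the counted strand numbered 4327424 in replicate 1 and 3839984 in replicate 2. For a count of 0 a floor of 3 counts was set, close to a 1-sided 95% counting limit. That floor equals 0.693 and 0.781 CPM. CPM is a gene's count scaled to a total of 1000000 of these gene reads. It compares genes by counted reads. Unequal capture of different sequences in library making was not measured and, if it recurs in both libraries, is in no SD given here. Of all reads, 30.4% ± 0.359 (SD, n = 2) mapped to several places and were assigned to no gene. Intervals are 95% and hold no more than counting error, because amplified reads that carry no molecular identifier may be copies of 1 molecule. The heart muscle miRNAs were present, with Mir208b at 66568 ± 359 CPM. Mir1a-1 and Mir133a-1, each of which shares a mature sequence with another gene copy, had 10 to 13 counts. In whole hearts, a lower level from fewer cells and one from less RNA per cell cannot be told apart.

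All 9 measured proximal miRNAs were well detected in the embryonic heart, and together they made up 1.02% ± 0.139 of the counted gene reads. Their sum was 9175 CPM in replicate 1 and 11147 CPM in replicate 2. Each of the 9 had at least 10 counts in each library, as did 17.1% of all 1973 genes, and each averaged 100 CPM or more, as did 8.62% of all genes. Mir127 and Mir431 exceeded 1000 CPM, as did 3.95% of all genes. The median of the 9 means was 629 CPM, against 104 CPM over the 337 genes detected in that sense and 0 over all genes. Reads mapping to several places are in none of these values. Genes that share a mature sequence with another gene copy, such as Mir1a-1 and Mir133a-1, therefore stand too low. Shares and ranks of the 9 genes are therefore among singly mapped reads only.

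**Figure D1:**
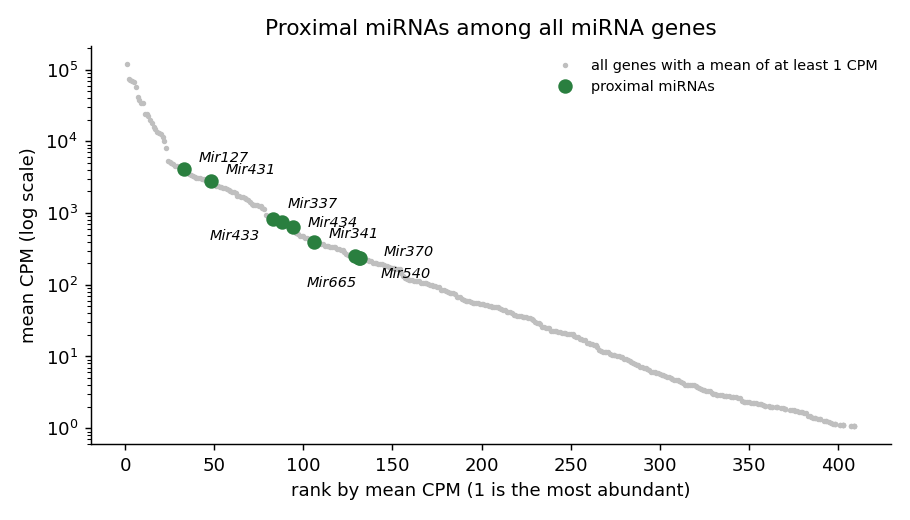
Mean CPM of 2 heart libraries (log scale) against rank, for every miRNA gene averaging 1 CPM or more (grey) and the 9 measured proximal miRNAs (green). Mir127 ranks 33 and Mir665, the lowest of the 9, ranks 132 of 1973.

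The genes opposite Rtl1 carried most of these reads. Mir127, Mir431, Mir433 and Mir434 together gave 80.9% ± 0.123 of the sum over the 9 genes, the trio between Meg3 and Rtl1 12.9% ± 0.435 and the pair in Rian 6.18% ± 0.558. In replicates 1 and 2 the share was 81.0% and 80.9% for the genes opposite Rtl1, 13.2% and 12.6% for the trio, and 5.78% and 6.57% for the pair in Rian. Among the genes opposite Rtl1, Mir127 made up 41.6% and 38.6% of the sum over the 9 genes and Mir431 24.8% and 29.7%.

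**Figure D2:**
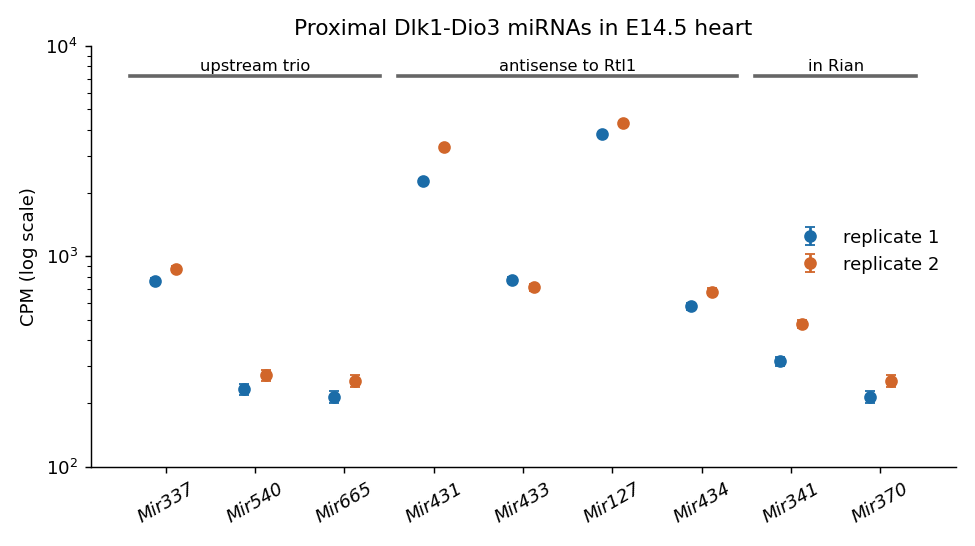
CPM (log scale) of each measured proximal miRNA in replicate 1 (blue) and replicate 2 (orange), in their order along the chromosome, with 95% counting intervals. Mir127 and Mir431 stand above the other 7 in both libraries, and Mir433 alone is lower in replicate 2.

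Mir127, which the mouse placenta needs and which represses Rtl1 there, was the most abundant. It had 16498 counts (3812 CPM, interval 3754 to 3871) in replicate 1 and 16530 counts (4305 CPM, interval 4239 to 4371) in replicate 2, and ranked 32 among all miRNA genes in each. Its mean was 4059 ± 348 CPM (SD, n = 2), or 40.1% ± 2.07 of the sum over the 9 genes. The counting intervals of the libraries did not overlap, but such intervals leave out error from copied reads. The ratio of replicate 2 to replicate 1 was 1.13 for Mir127. It was 1.08 (interval 1.06 to 1.10) under TMM scaling and 1.04 (1.02 to 1.07) under median-of-ratios scaling.

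Mir431, which in mouse promotes differentiation of muscle progenitors through the Pax7 transcript, came next. It had 9838 counts (2273 CPM) in replicate 1 and 12729 counts (3315 CPM) in replicate 2, with a mean of 2794 ± 736 CPM. Mir127 stood above it in both libraries and their ranges did not overlap, but Mir127 exceeded it 1.68 times in replicate 1 and 1.30 times in replicate 2.

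Mir433, which has been linked to scar formation in the adult mouse heart, had 3336 counts (771 CPM) in replicate 1 and 2740 counts (714 CPM) in replicate 2, a mean of 742 ± 40.6 CPM. It was the only gene of the 9 that was lower in replicate 2. Mir434, at the other side of Mir127, had 2502 counts (578 CPM) and 2612 counts (680 CPM), a mean of 629 ± 72.2 CPM. Mir127 exceeded Mir433 by 5.49 ± 0.769 times and Mir434 by 6.46 ± 0.188 times. In counted reads, genes cut from the same stretch opposite Rtl1 thus differed by more than the spread between the 2 libraries.

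Between Meg3 and Rtl1, Mir337 had 3300 counts (763 CPM) in replicate 1 and 3357 counts (874 CPM) in replicate 2, a mean of 818 ± 78.9 CPM. Mir540 had 1008 counts (233 CPM) and 1043 counts (272 CPM), a mean of 252 ± 27.4 CPM. Mir665 had 926 counts (214 CPM) and 979 counts (255 CPM), a mean of 234 ± 29.0 CPM. Mir337 stood 3.25 ± 0.0390 times above Mir540, whose hairpin begins 194 bases after its end, and these ratios hardly differed between libraries. Mir540 and Mir665 were within 1.08 ± 0.0164 times of each other.

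In Rian, Mir341 had 1370 counts (317 CPM) in replicate 1 and 1832 counts (477 CPM) in replicate 2, a mean of 397 ± 113 CPM, the largest spread relative to the mean among the 9 genes. Mir370, which represses Cpt1a, an enzyme of fatty acid oxidation, in human liver cells, had 926 counts (214 CPM) and 981 counts (255 CPM), a mean of 235 ± 29.3 CPM. Mir341 was above Mir370 in both libraries, by 1.48 times in replicate 1 and 1.87 times in replicate 2.

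In order of the mean the genes ran Mir127, Mir431, Mir337, Mir433, Mir434, Mir341, Mir540, Mir370 and Mir665. Neighbours in this order whose ranges over the 2 libraries overlapped were Mir337 and Mir433, Mir540 and Mir370, and Mir370 and Mir665. The other 5 neighbouring pairs did not overlap. Mir433 was above Mir337 in replicate 1 and below it in replicate 2. Mir370 and Mir665 had the same 926 counts in replicate 1.

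Some hairpins next to one of the 9 were far lower. Mir1188, 226 bases after Mir341 and also within Rian, had 34 and 25 counts (7.18 ± 0.952 CPM), and Mir341 stood 40.3 times above it in replicate 1 and 73.3 times in replicate 2. Mir432, 356 bases after Mir434, had 0 counts in both libraries. Taking 3 counts per library as the floor, Mir434 was at least 834-fold higher, with its own counting error left out. Mir3070a, between Mir665 and Rtl1, had 6 and 10 counts and Mir3070b had 0, but these hairpins share 20-base stretches with each other and their counts are uncertain. On the other side of Mir337, towards and in Meg3, Mir493 had 106 ± 9.58 CPM, Mir673 59.6 ± 4.51 CPM and Mir770 55.7 ± 0.0269 CPM, all 3 below each of the 9. Mir882 and Mir1906-1 had 0 counts in both libraries, but no result on shared stretches is given for Mir1906-1, so its 0 is uncertain.

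**Figure D3:**
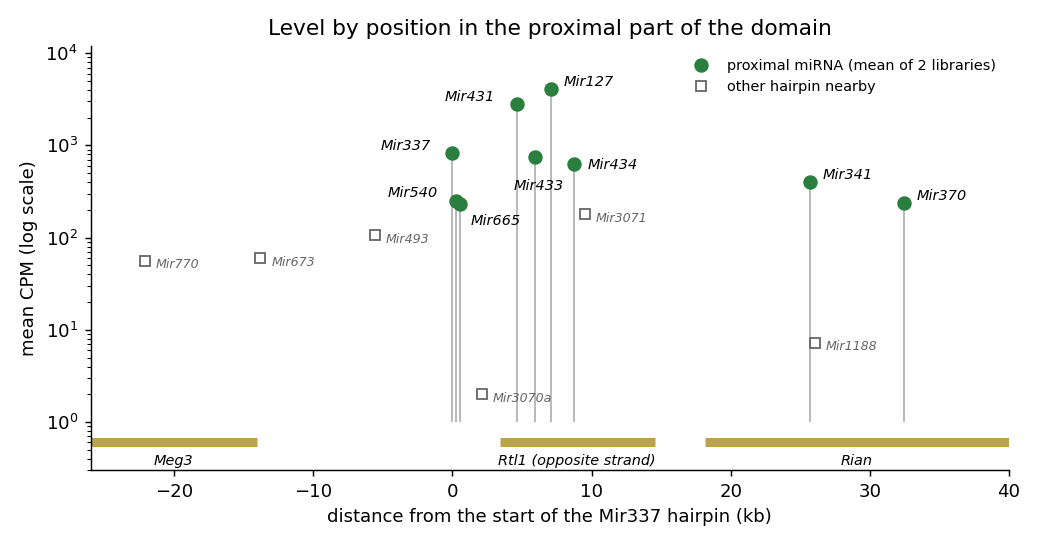
Mean CPM (log scale) of the 9 measured proximal miRNAs (green) and of neighbouring hairpins outside the list with any count (open squares), against distance from the start of the Mir337 hairpin in kb, with the spans of Meg3, Rtl1 and Rian as bars (Meg3 and Rian run past the axis) and the row at the place of Mir136 under the name Mir3071. The genes opposite Rtl1 include both highest values, and Mir1188 (7.18 CPM) lies beside Mir341 (397 CPM).

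Reads at the place of Mir136 could not be assigned to it. The row found there has the identifier that GENCODE M21 gives to Mir3071, a hairpin that spans Mir136 on the minus strand (109595318 to 109595397), and the tables hold an earlier version of that identifier. It had 663 counts on the counted strand in replicate 1 and 787 in replicate 2, or 179 ± 36.6 CPM, and 0 and 1 counts on the other strand. The strand of the earlier version is not given in the sources used here, so whether these reads are miR-136 or miR-3071 was not settled. With that row counted in, the sum was 10340 CPM instead of 10161.

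Set against the distal miRNAs of the same domain, which lie in and before Mirg, the proximal genes had a higher median level, at 629 CPM over 9 genes against 85.0 CPM over 34. The proximal sum of 10161 ± 1394 CPM was below the distal sum of 21550 ± 2597 CPM. The distal list also reached as high, with Mir487b at 4830 ± 4.28 and Mir411 at 4394 ± 874 CPM, but 5 of its 34 genes had fewer than 10 counts in a library, among them Mir453 and Mir654 with 0. Another of the 5, Mir299b, had 2 counts in each library, against 3869 and 4336 on the opposite strand, facing Mir299a, which has no row. The distal median and sum leave such opposite-strand reads out. The proximal genes took 31.6% ± 0.382 of the reads of the domain's 53 measured genes. That share was 27.4% when reads on the opposite strand of 4 rows that face Mir299a, Mir380, Mir376a and Mir409 were added to the domain, a choice made after the data were seen. The gene choice differs between these lists, so the medians describe the lists only.

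The 3 genes closest to Mir127 by level, as Euclidean distance of log2(CPM + 1) over the 2 libraries, were Mir100 (4063 ± 361 CPM, distance 0.00500), Mir411 (4394 ± 874 CPM, distance 0.22) and Mir214 (3621 ± 118 CPM, distance 0.24). Mir411 lies in the same domain, while Mir100 is on chromosome 9 and Mir214 on chromosome 1. With 2 libraries this likeness is one of level.

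Between the libraries, 8 of the 9 genes were higher in replicate 2, as were 58.8% of the 396 genes whose counts summed to 10 or more and 56.5% of the 170 genes averaging 100 CPM or more. The ratio of replicate 2 to replicate 1 was 1.51 (counting interval 1.40 to 1.62) for Mir341 and 1.46 (1.42 to 1.50) for Mir431, the only 2 of the 9 above a ratio of 5 to 4, as were 26.5% of the 396 genes. The next 6 lay between 1.13 for Mir127 and 1.19 for Mir370. Mir433 had a ratio of 0.926 (0.880 to 0.974), lower in replicate 2 as were 41.2% of the 396 genes, and none of the 9 lay below a ratio of 4 to 5, as did 13.9%. The counting interval left out 1 for all 9 genes, above it for 8 and below it for Mir433, against 28.0% and 17.2% of the 396 genes. Under median-of-ratios scaling the interval of Mir540 held 1 (ratio 1.08, interval 0.987 to 1.18), which left 7 genes above and Mir433 below, against 19.4% and 29.0% of the 396 genes. At 926 to 16530 counts per gene and library such intervals are narrow, and they compare these 2 libraries only.

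**Figure D4:**
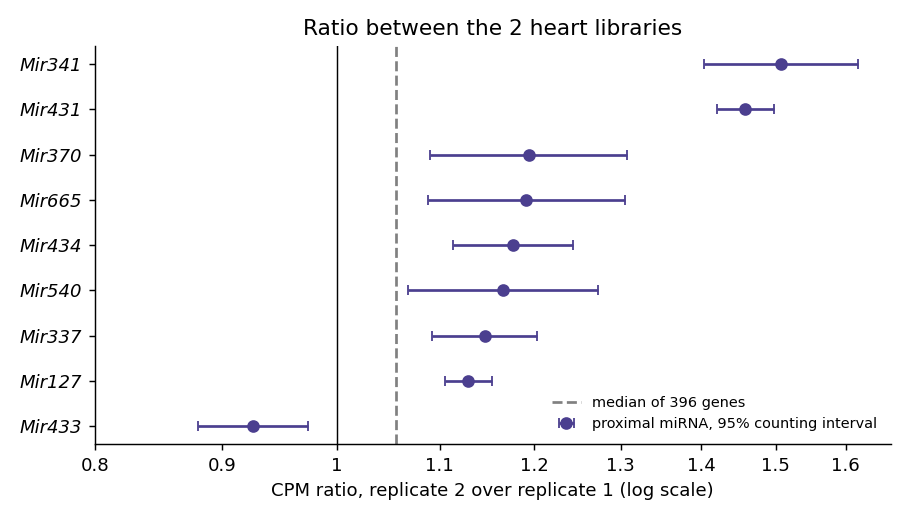
Ratio of CPM in replicate 2 to replicate 1 (log scale) for each measured proximal miRNA, with 95% counting intervals, a solid line at 1 and a dashed line at the median of 396 genes. Mir341 and Mir431 stand apart at 1.51 and 1.46, and Mir433 lies at 0.926.

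The median log2 ratio was 0.23 over the 9 genes and 0.08 over the 396 genes, a gap of 0.16. Median-of-ratios scaling moved the median over all genes by 0.11, to -0.03, and left 45.5% of them higher in replicate 2. Under it the median of the 9 was 0.12 and 8 of 9 were higher in replicate 2. A scaling shifts all genes alike, so the gap is the same by construction. In CPM without that scaling, the distal miRNAs gave a median log2 ratio of 0.22. There 25 of 29 compared distal genes were higher in replicate 2, against 58.8% of the 396 genes. Genes of 1 domain are not independent of each other. Mir431 was higher and Mir433 lower in replicate 2, and the ratio of Mir431 to Mir433 was 2.95 in replicate 1 and 4.65 in replicate 2, although the hairpins lie 1.18 kb apart.

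Markers of other cell types also differed between the libraries, where 58.8% of the 396 genes were higher in replicate 2 and 41.2% lower. Epithelial markers were higher in replicate 2 for 7 of 7 genes, and their summed level was 667 CPM in replicate 1 against 1142 in replicate 2. The smooth muscle list was higher for 2 of 2 (64494 and 87098 CPM) and the skeletal muscle list for 2 of 3 (20.3 and 39.1 CPM). Counts in the skeletal muscle list were few, with Mir206 at 68 and 131, Mir133b at 9 and 15 and Mir1b at 11 and 4. The neuronal list was higher for 2 of 3 compared genes (137 and 206 CPM). Mir128-1 had 524 and 416 counts, Mir137 57 and 329, and Mir7b 12 and 45. No read was counted for its other 5 measured genes, which encode miR-9 or miR-124, but gene copies share these mature sequences and reads mapping to several places are not counted, so these values say nothing of their expression. The red blood cell list was lower for 2 of 2 (1184 and 489 CPM), as was the white blood cell list (479 and 389 CPM). Most of the red blood cell sum was Mir451a, at 1090 and 415 CPM, while Mir144 had 94.3 and 73.7 CPM. The heart muscle list was higher for 4 of 5 (75758 and 79359 CPM). Among these 4, the ratio of replicate 2 to replicate 1 was 1.43 for Mir208a, 1.09 for Mir499 and 1.01 for Mir208b. Mir208b, at 66314 and 66822 CPM, made up most of the list sum. Mir133a-1, which shares a mature sequence with another gene copy, had 12 counts in each library. The endothelial marker was higher for 1 of 1 (69932 and 75015 CPM), the liver list for 2 of 3 (137 and 143 CPM) and the pancreas list for 1 of 1 compared gene (11.6 and 23.7 CPM). The part of these marker differences in the ratios of the proximal miRNAs was not tested. The difference between the hearts and that between the collection days cannot be told apart.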

How the data were processed

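Small RNA libraries of mouse embryonic heart (2 libraries, 1 group) were read from the deposited table of each. The authors' values are raw whole-number counts per gene, in 3 columns (both strands together, then each strand alone), for 1973 genes and 4 lines that name no gene. Per the deposited descriptions the build was mm10 and the annotation GENCODE M4. Neither aligner nor counting program is named (not given in the sources used here). Over both libraries, 95.4% ± 0.103 of gene reads lay in the second of the 3 columns, which was used. Of all reads, 53.0% ± 0.191 were gene reads on that strand, 11.9% ± 0.330 did not map and 4.73% ± 0.220 met no gene. Totals are of gene lines alone.

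Identifiers were matched without their version to GENCODE M21 (the same assembly), which named 1894 of 1973. All 10 hairpins were found in RefSeq (GRCm38.p6), with no genome sequence searched. CPM used the gene total of each library. Count intervals are exact Poisson and ratio intervals exact conditional binomial, both at 95%. The ratio intervals were checked on simulated Poisson counts, which hold no copied reads and no variation between hearts. With 1 group there is no test between groups. Alternatives were the unstranded column, TMM (edgeR 4.0.16) and median-of-ratios scaling (DESeq2 1.42.0, R 4.3.3), other totals, count minimums and pseudocounts, and each replicate left out. Tables and figures were made with pandas 2.3.3, numpy 2.4.6, scipy 1.17.1 and matplotlib 3.10.9 under Python 3.11.15.

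The 10 genes and all lists were chosen with earlier results of these data known. Genes named were all 10, the hairpins between or beside them, the 2 highest and 2 lowest distal genes (Mir487b, Mir411, Mir453 and Mir654), 5 genes of other imprinted loci, hairpins overlapping one of the 10, and the 3 genes nearest in level to the most abundant. Cell type markers came from lists of their own, with those named by their values and the 4 rows facing Mir299a, Mir380, Mir376a and Mir409 chosen after their values were seen. The ratios between pairs of genes were chosen after their values were seen. Replicates are numbered as biological in the labels, under 1 donor entry.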

Additional observations from a re-analysis of the deposited data

Results flagged for a closer look

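Reads lay in a row left out of the sum over the 9 proximal genes. The row that overlaps Mir136 and is named Mir3071 had 663 counts in replicate 1 and 787 in replicate 2, above the floor of 3 counts set for a count of 0. Whether they belong to miR-136 or miR-3071 was not settled.

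Outside the proximal genes, 4 rows whose hairpins face Mir299a, Mir380, Mir376a and Mir409 had 18792 opposite-strand counts in replicate 1 and 20871 in replicate 2, against 2 counts on the counted strand in each library. The 9 proximal rows together had 2 opposite-strand counts, both of Mir337 in replicate 1.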

How the results depend on the processing

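Detection, level classes and the count of 8 genes higher in replicate 2 did not change under any alternative run for them. With all reads as the total, the median level was 333 CPM and the sum 5380 CPM, since gene reads are 53.0% of all reads, and without the most abundant gene in the total the median was 714 CPM. The median log2 ratio was 0.12 under median-of-ratios scaling. The share of the domain was 30.6% from the unstranded column, 27.4% with the opposite-strand reads of facing rows and 32.2% with the row overlapping Mir136, the last 2 chosen after the data were seen. With 1 replicate left out, the sum lay between 9175 and 11147 CPM, the median between 578 and 680 CPM and the share between 31.3% and 31.9%. Of the 18 levels and log2 ratios of single genes, 9 moved beyond their spread or interval with all reads as the total, 7 without the most abundant gene, 6 under median-of-ratios scaling, 2 under TMM and 0 from the unstranded column, and none changed sign. Having 2 libraries limits every SD to 1 difference, and no paired analysis was possible because there is 1 group.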

Other observations

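Of 5 miRNAs of other imprinted loci, 4 were lower in replicate 2, as were 41.2% of the 396 genes compared. Mir335, in an intron of Mest, had 125048 CPM in replicate 1 and 114248 CPM in replicate 2, and Mir483, in an intron of Igf2, had 5386 and 4846 CPM. Mir298 had 3603 and 3075 CPM and Mir296 had 3076 and 2756 CPM. Mir675, cut from H19, was the 1 of the 5 that was higher in replicate 2, with 116 and 146 CPM. The summed ratio of replicate 2 to replicate 1 was 1.21 for the 9 proximal Dlk1-Dio3 genes, against 0.911 for these 5. Mir335 gave 119648 of the mean 131150 CPM summed over the 5, so 0.911 is mostly its own ratio of 0.914. The list holds 5 genes and the difference between the lists was not tested.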
